A study of Mus musculus with 1536 samples.

Results

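The genes described here are 10 members of the bone morphogenetic protein (BMP) and transforming growth factor-β (TGF-β) pathways in lymphatic endothelial cells (LECs) of the mouse nasopharynx. They were taken by symbol from an expression matrix of 23168 genes and 842 cells. Although they go by the name of receptors and targets, they comprise 3 ligands (*Bmp2*, *Bmp4* and *Bmp6*), the type I receptor *Acvrl1*, the type II receptors *Bmpr2* and *Tgfbr2*, the co-receptor *Eng*, the inhibitory Smads *Smad6* and *Smad7*, and the target gene *Id1*. All 10 are in the matrix, and 7 of them had a read in at least 10% of the cells. The cells came from c57bl/6 mice of both sexes aged 10–12 weeks, for which no treatment and no transgene is given. Mucosa of 30 mice was combined before CD31+PDPN+ cells were sorted, and Smart-seq3 was used, a plate-based single-cell method that covers transcripts along their length. Columns name no mouse and no plate, so all cells form 1 sample and there are no replicates. No p-value is therefore given, each SD describes the spread between these cells, and intervals of shares are exact (Clopper–Pearson) 95% intervals that cover counting error only.

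The BMP and TGF-β ligands are secreted dimers that bring together type I and type II serine/threonine kinase receptors. The type II receptor phosphorylates the type I receptor, which phosphorylates receptor Smads, and these enter the nucleus with Smad4. *Acvrl1* (ALK1), *Bmpr2* and *Eng* (endoglin) form the endothelial receptor complex for circulating BMP9 and BMP10, and ALK1 is known from lymphatic development and valve formation. *Cldn11* encodes a tight junction protein that marks cells of lymphatic valves.

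Total reads per cell were between 7433 and 3524358 with a median of 350746, and each cell had 2001 to 7236 genes. Each value is ln(1 + reads per 10000). The cells held LEC transcripts, as *Prox1* was found in 97.7% of cells, *Flt4* in 99.8%, *Pecam1* in 99.6% and *Pdpn* in 95.2%. Of the immune markers, *Ptprc* and *Cd3e* had no read in any cell, while *Cd68* was found in 15.7% of cells, *Lyz2* in 7.96% and *Cd79a* in 2.85%. At least 2 immune markers were found in 21 cells. Epithelial *Epcam* and *Krt8* were found in 0.48% and 0.36% of cells. Among blood endothelial genes, *Emcn* (94.2%) and *Plvap* (77.8%) were frequent, whereas *Vwf* (5.11%) and *Sox17* (4.99%) were rare. Fibroblast *Dcn* was found in 12.4% of cells. The 16 immediate early and dissociation genes summed to between 0.95 and 1070 reads per 10000 in a cell, with a median of 219.

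*Eng* and *Tgfbr2* were found in nearly every cell, *Acvrl1*, *Bmpr2* and *Id1* in most at the deposited depth, *Bmp4* and *Bmp6* in a minority, and *Smad7*, *Bmp2* and *Smad6* in few or hardly any. *Eng* binds ligand beside the signalling receptors and had a read in 837 of 842 cells (99.4%, interval 98.6–99.8%). Its value was 2.28 ± 0.74 (SD over cells), with a median of 2.34, an interquartile range of 1.88 to 2.80 and a highest value of 3.88. *Tgfbr2*, the type II receptor of the TGF-β isoforms, had a read in 831 cells (98.7%, interval 97.7–99.4%) and a value of 1.91 ± 0.68 (median 2.01, highest 3.69). Both genes were spread over the cells, and the 84 cells with the highest level of a gene held 26.0% of the summed *Eng* level and 24.8% of that of *Tgfbr2*.

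*Acvrl1*, the endothelial type I receptor, was found in 599 cells (71.1%, interval 67.9–74.2%), with a median value of 0.41 and a highest of 2.97. *Bmpr2*, the type II receptor that binds BMPs, was found in 613 cells (72.8%, interval 69.7–75.8%), with a median value of 0.35 and a highest of 2.67. These shares depend on depth. When each cell was thinned to 20000 reads, which left out 51 shallower cells, *Acvrl1* was found in 53.6% and *Bmpr2* in 51.8% of 791 cells, against 98.0% for *Eng* and 95.8% for *Tgfbr2*. The 84 highest cells held 43.4% of the summed level of *Acvrl1* and 43.9% of that of *Bmpr2*.

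Of the ligands, *Bmp4* was found in 360 cells (42.8%, interval 39.4–46.2%) and *Bmp6* in 307 cells (36.5%, interval 33.2–39.8%). In cells that had a read, the median value was 0.97 for *Bmp4* and 0.73 for *Bmp6*, with highest values of 3.75 and 2.77. Both ligands were uneven between cells, and the 84 highest cells held 64.9% of the summed *Bmp4* level and 68.0% of that of *Bmp6*. *Bmp2* had 12 reads in 4 cells (0.48%, interval 0.13–1.21%), of 462634140 reads in all.

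*Id1*, a helix–loop–helix inhibitor that BMP signalling induces, was found in 484 cells (57.5%, interval 54.1–60.9%). Its median value was 0.05 and its 90th percentile 2.13, with the highest value of the 10 genes at 4.36. The 84 highest cells held 62.3% of its summed level, a share nearer to those of the ligands than to those of the receptors. The inhibitory Smads, which are themselves induced by the pathways and restrain them, were low. *Smad7* (chr18:75367529-75395935, +) was found in 80 cells (9.50%, interval 7.61–11.7%) with 1483 reads, and *Smad6* had 5 reads in 3 cells (0.36%, interval 0.07–1.04%). After thinning, *Smad7* was found in 4.80% and *Id1* in 43.7% of 791 cells, so *Id1* was in most cells at the deposited depth but not at equal depth. *Smad6* was then found in 0 of 791 cells, which at 3 counts allows a share of up to 0.379%.

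**Figure D1:**
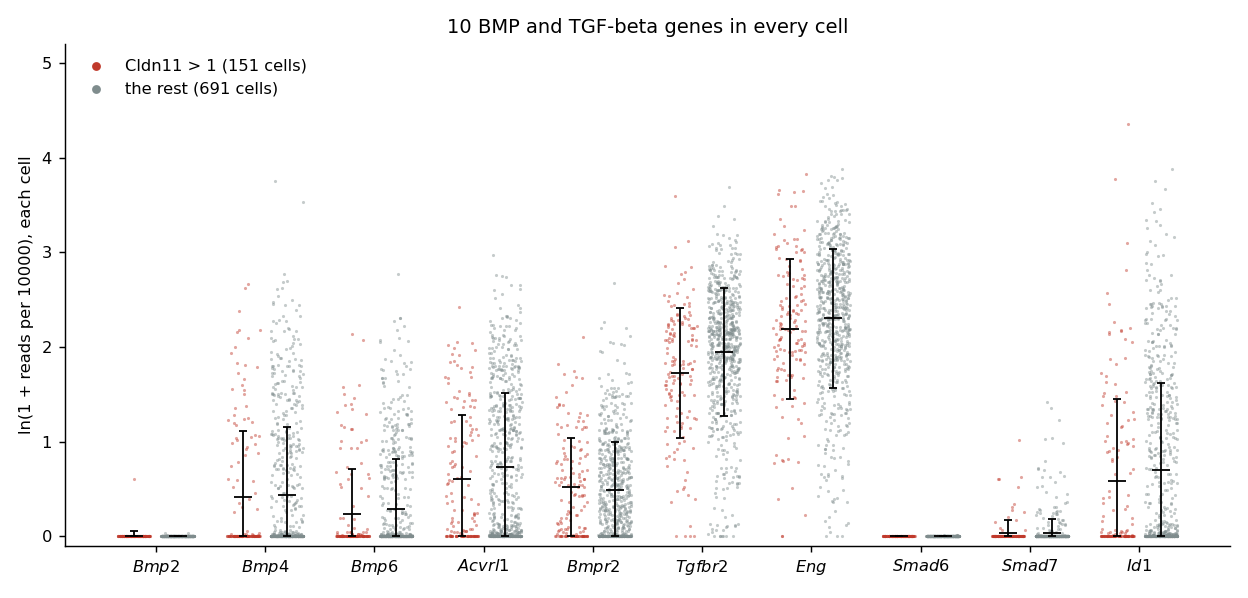
Each point is 1 cell, placed by its deposited value of each gene, ln(1 + reads per 10000), with the 151 cells of Cldn11 > 1 in red and the other 691 cells in grey. Horizontal marks are means and vertical bars 1 SD over cells, drawn down to no less than 0. *Eng* and *Tgfbr2* lie well above 0 in most cells of both sets, *Bmp2* and *Smad6* lie at 0 in nearly all, and the other genes range from 0 upward.

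Levels of different genes were compared per kilobase of exon (GENCODE M21 on GRCm38). Smart-seq3 reads from transcript 5′ ends do not scale with length, so the order is approximate. The mean level per kilobase, in reads per 10000, was 2.82 ± 2.06 for *Eng*, 2.12 ± 4.96 for *Id1*, 0.88 ± 0.62 for *Tgfbr2*, 0.53 ± 1.30 for *Bmp4* and 0.42 ± 0.61 for *Acvrl1*. It was 0.15 ± 0.36 for *Bmp6*, 0.050 ± 0.074 for *Bmpr2*, 0.011 ± 0.054 for *Smad7*, 0.00031 ± 0.0081 for *Bmp2* and 1.4e-05 ± 0.00025 for *Smad6*. Every neighbouring pair in this order differed by less than the SD over cells of at least 1 of the pair. *Bmpr2* has 17983 bases of exon, the longest of the 10 genes, and its place below *Bmp6* rests on that length, since before division it had 0.91 reads per 10000 against 0.59 for *Bmp6*.

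The genes are on several chromosomes, all protein coding. *Eng* is at chr2:32646595-32682669 (+), *Tgfbr2* at chr9:116084293-116175360 (−), *Acvrl1* at chr15:101128522-101145336 (+), *Bmpr2* at chr1:59763400-59879014 (+) and *Bmp4* at chr14:46383520-46390669 (−). *Bmp6* is at chr13:38345107-38500302 (+), *Bmp2* at chr2:133552159-133562885 (+), *Smad6* at chr9:63953076-64022059 (−) and *Id1* at chr2:152736251-152737410 (+). No gene on the same strand overlaps exons of any of them. Exons of genes on the other strand cover 5.74% of the exon bases of *Bmp6* (*Txndc5*), 3.96% of *Bmp4* (*Gm15217*), 2.98% of *Acvrl1* (*Gm16031*) and 1.51% of *Eng* (*Fpgs*), and whether strand was used in counting is not given in the sources used here.

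Promoter sequences of 6 of the 10 genes were matched by symbol in a RefSeq table (GRCm38.p6): *Bmp4*, *Bmp6*, *Bmpr2*, *Tgfbr2*, *Eng* and *Smad6*. The 250 bases before the start of the RefSeq entry were searched on both strands for GGCGCC, a GC-rich sequence that BMP-activated Smads bind, and for CAGAC, a Smad-binding sequence. For *Bmpr2* and *Bmp6* this start is downstream of the gene start in GENCODE M21, so their windows lie inside the gene as given there. GGCGCC is its own reverse complement, and neither motif contains the other. Of 32851 promoters in the table, 9.59% hold GGCGCC and 42.2% hold CAGAC in this window. GGCGCC occurs once in *Bmpr2* and in none of the other 5, and CAGAC occurs 2 times in *Eng*, once each in *Bmp6* and *Tgfbr2* and not in *Bmp4*, *Bmpr2* or *Smad6*. The sequences given are those of the pair of genes found in nearly every cell (*Eng* and *Tgfbr2*), the most abundant ligand of the 3 (*Bmp4*) and the gene with hardly any read (*Smad6*). They are printed 5′ to 3′ on the gene's strand, with CAGAC and its reverse complement in capitals, and none of the 4 holds GGCGCC.
*Eng*, chr2:32646345-32646594 (+): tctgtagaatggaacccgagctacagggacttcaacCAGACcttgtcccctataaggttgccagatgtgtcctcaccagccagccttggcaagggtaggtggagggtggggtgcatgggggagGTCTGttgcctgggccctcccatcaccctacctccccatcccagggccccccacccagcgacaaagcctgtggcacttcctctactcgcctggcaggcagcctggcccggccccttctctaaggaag
*Tgfbr2*, chr9:116175364-116175613 (−): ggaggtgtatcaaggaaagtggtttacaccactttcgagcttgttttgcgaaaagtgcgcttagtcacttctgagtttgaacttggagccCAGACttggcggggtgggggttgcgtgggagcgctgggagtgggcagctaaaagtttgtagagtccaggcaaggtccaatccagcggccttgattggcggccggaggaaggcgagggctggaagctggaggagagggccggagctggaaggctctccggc
*Bmp4*, chr14:46390670-46390919 (−): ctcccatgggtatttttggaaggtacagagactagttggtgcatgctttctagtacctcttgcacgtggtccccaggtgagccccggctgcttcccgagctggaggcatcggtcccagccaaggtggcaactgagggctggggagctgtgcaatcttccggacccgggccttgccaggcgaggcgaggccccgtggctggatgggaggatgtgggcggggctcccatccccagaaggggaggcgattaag
*Smad6*, chr9:64022060-64022309 (−): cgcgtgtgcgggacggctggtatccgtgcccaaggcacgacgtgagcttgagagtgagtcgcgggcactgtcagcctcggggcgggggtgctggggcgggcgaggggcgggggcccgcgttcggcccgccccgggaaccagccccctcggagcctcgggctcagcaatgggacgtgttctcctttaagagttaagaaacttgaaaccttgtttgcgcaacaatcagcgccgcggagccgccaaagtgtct
A match of letters describes the sequence only. The GC content of these windows was 62.4% for *Eng*, 58.4% for *Tgfbr2*, 63.2% for *Bmp4* and 66.8% for *Smad6*.

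Cells were then divided by *Cldn11* (chr3:31149920-31164324, +), with 151 cells above a value of 1 and 691 cells at or below it. None of the 7 genes that had a read in at least 10% of cells differed by more than 1.5-fold between the sets, and the exact intervals of all 10 shares overlapped. By the same rule 149 of 9654 genes (1.54%) were higher and 281 (2.91%) lower in cells with *Cldn11* > 1, so 0 of 7 does not set these genes apart from the rest. Ratios are of mean reads per 10000 with 0.1 added to each mean. The median log2 ratio was −0.15 over the 7 genes and −0.03 over all genes tested, and 6 of the 7 were below 0, as were 56.0% of all genes.

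The set is a range of 1 gene and not a cell type. Of all cells 314 had a *Cldn11* read, and 67 had a value between 0.8 and 1.2, close to the dividing value. Among the other valve genes, *Gata2* was higher in the set (log2 ratio 0.62), while *Foxc2* (−0.14), *Itga9* (−0.12), *Nfatc1* (0.12), *Gja4* (0.23) and *Gja1* (−0.39) did not differ by 1.5-fold. The chemokine gene *Ccl21a* was lower in it (−0.77), and *Lyve1* was at −0.49. Median depth was 322571 reads in the set and 360540 in the rest.

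*Acvrl1* had the largest ratio of the 7 genes. It was found in 66.9% of cells with *Cldn11* > 1 (interval 58.8–74.3%) and in 72.1% of the rest (68.6–75.4%), its mean was 1.36 against 1.91 reads per 10000 (log2 ratio −0.46), and its value was 0.60 ± 0.68 against 0.73 ± 0.78. The difference of 0.13 was far smaller than the SD between cells of either set. *Tgfbr2* was found in 97.4% and 99.0% of cells, with a mean of 5.95 against 7.50 reads per 10000 (log2 ratio −0.33) and a value of 1.73 ± 0.68 against 1.95 ± 0.67. *Eng* had a mean of 10.5 against 11.6 (log2 ratio −0.15) and *Bmpr2* of 0.95 against 0.90 (0.08), the only one of the 7 above 0. The 4 receptor genes thus showed similar shares and overlapping values in both sets.

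For the ligands, *Bmp4* was found in 38.4% of cells with *Cldn11* > 1 and 43.7% of the rest (log2 ratio of the mean −0.13), and *Bmp6* in 35.8% and 36.6% (−0.29). *Id1* was found in 52.3% (interval 44.0–60.5%) and 58.6% (54.8–62.3%), with means of 2.29 and 2.49 reads per 10000 (log2 ratio −0.12). One cell of the *Cldn11* > 1 set, with 77.1 reads of *Id1* per 10000, carried much of that mean, and without it the ratio was −0.46. *Smad7* was found in 9.93% and 9.41% of cells. *Smad6* was found in 0 of 151 cells, which at 3 counts allows a share of up to 1.99% (exact interval up to 2.41%), and in 3 of the rest, and *Bmp2* in 1 and 3 cells. With thinned cells the shares were 47.3% and 55.0% for *Acvrl1*, 29.5% and 32.1% for *Bmp4* and 39.0% and 44.8% for *Id1*, again with overlapping intervals.

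**Figure D2:**
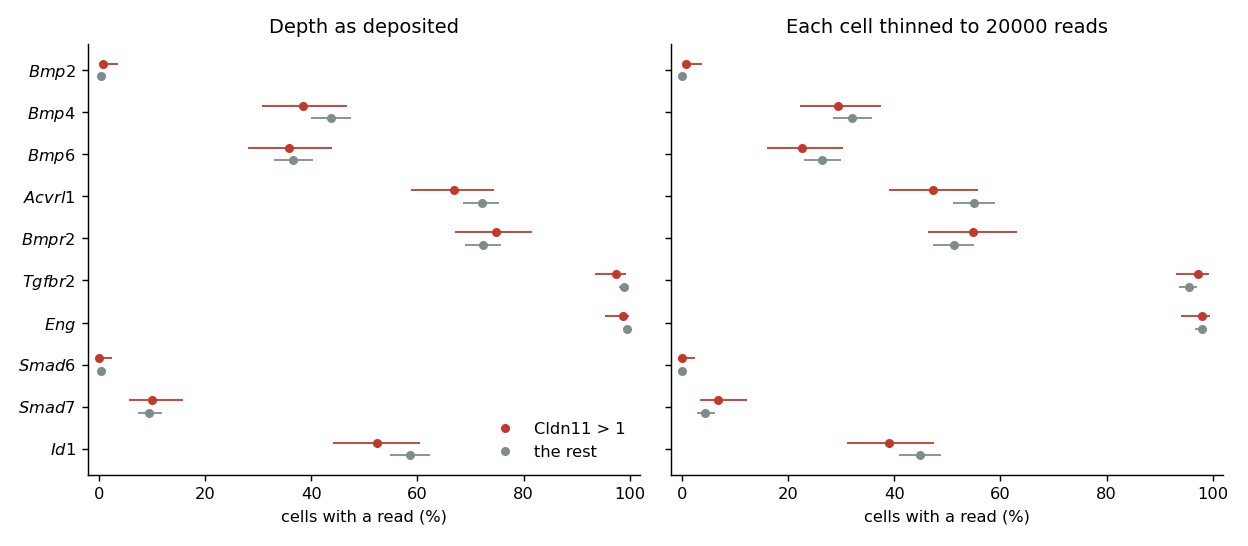
The share of cells with a read of each gene (percent, horizontal axis) in cells with Cldn11 > 1 (red) and in the rest (grey), at the deposited depth on the left and with each cell thinned to 20000 reads on the right. Bars are exact 95% intervals, which overlap between the sets for all 10 genes in both panels, and thinning lowers *Acvrl1* over all cells from 71.1% to 53.6%.

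The absence of a 1.5-fold difference depended on where and how the division was made. In the 36 cells with *Cldn11* above 2, 3 of the 7 genes were past 1.5-fold, with *Bmp4* at a log2 ratio of −1.47, *Tgfbr2* at −0.81 and *Acvrl1* at −0.59, and *Id1* was at 0.41 in place of −0.12. In that smaller set 8.20% of all genes were higher and 14.6% lower past 1.5-fold. When reads were summed over cells, which weights deep cells, *Bmp6* was at −0.87 and *Id1* at −0.82. *Acvrl1*, *Tgfbr2*, *Bmp6* and *Eng* were below 0 under each of the 13 alternatives that give a ratio, and *Bmp4*, *Bmpr2* and *Id1* took both signs. Among the 13, those that change only the share of cells required or the fold limit leave each ratio as it was.

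The study separates valve LECs of the upstream and downstream side by *Gja4*, a connexin gene, so the 52 cells with *Gja4* > 1 were set beside the other 99 cells within *Cldn11* > 1. None of the 7 genes differed by 1.5-fold, where 8.93% of all genes were higher and 9.33% lower. *Acvrl1* was found in 73.1% (interval 59.0–84.4%) against 63.6% (53.4–73.1%), with a log2 ratio of 0.49. *Bmpr2* was found in 80.8% and 71.7% (0.24), and *Bmp4* in 32.7% and 41.4% (−0.20). The intervals of the shares overlapped for each of the 10 genes, which does not show that the cells were alike. Single genes passed 1.5-fold under 3 alternatives, *Bmp4* (−0.91) with summed reads, *Bmp6* (−0.84) in cells with at least 3000 genes and *Id1* (1.41) without cells with 3 markers of another cell type.

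The same 7 genes were compared along 5 further marker genes of LEC subtypes, each divided at a value of 1. These sets overlap, as 53 of the 151 cells with *Cldn11* > 1 were also among those with *Lyve1* > 1. In all, 7 of the 35 combinations of gene and marker were past 1.5-fold, and they concerned *Id1*, *Bmp4*, *Eng* and *Acvrl1*. Of all genes, 1.32% to 4.91% were higher and 1.67% to 3.92% lower past 1.5-fold, depending on the marker. *Bmp6*, *Bmpr2* and *Tgfbr2* were not past it along any of the 6 markers.

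*Id1* and *Eng* were higher in the 263 cells with *Stab2* > 1, the gene of a scavenger receptor, where 4.91% of all genes were higher and 3.91% lower past 1.5-fold. *Id1* was found in 66.9% of these cells (interval 60.9–72.6%) and 53.2% of the rest (49.0–57.3%), its mean was 3.54 against 1.96 reads per 10000 (log2 ratio 0.82), and its value 0.89 ± 1.01 against 0.58 ± 0.85. With thinned cells it was found in 54.5% and 38.9%, and the intervals did not overlap at either depth. *Eng* had a mean of 15.2 against 9.71 reads per 10000 (log2 ratio 0.64) and a value of 2.58 ± 0.70 against 2.15 ± 0.72. The values of both genes overlapped widely between the sets, and their differences were under 1 SD. *Acvrl1* went the other way without passing 1.5-fold, at 1.40 against 1.99 (log2 ratio −0.48), so the co-receptor and the receptor it accompanies had ratios of opposite sign.

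*Id1* and *Bmp4* were lower in the 142 cells with *Fndc1* > 1, where 2.81% of all genes were higher and 3.92% lower past 1.5-fold. *Id1* had a mean of 1.29 against 2.69 reads per 10000 (log2 ratio −1.003), although its share was 53.5% against 58.3%, with overlapping intervals. *Bmp4* had a mean of 0.71 against 1.30 (log2 ratio −0.79) and was found in 33.8% against 44.6% of cells. In both genes the sets thus differed in level more than in the share of cells.

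*Bmp4* showed its largest ratio along *Lyve1*, the gene of a hyaluronan receptor, which the study uses with *Foxp2* for precollecting LECs. In the 407 cells with *Lyve1* > 1 it was found in 34.4% (interval 29.8–39.2%) against 50.6% (45.8–55.4%) of the other 435 cells, with a mean of 0.68 against 1.69 reads per 10000 (log2 ratio −1.20). Thinned cells gave 20.5% against 41.6%. Along *Lyve1*, 2.29% of all genes were higher and 2.10% lower past 1.5-fold. *Bmp6*, the other ligand in many cells, had a ratio of opposite sign, with a mean of 0.69 against 0.50 (log2 ratio 0.40). The lower *Bmp4* was seen in cells outside *Cldn11* > 1, where the mean was 0.57 against 1.91 (log2 ratio −1.59) and it was found in 33.6% (interval 28.7–38.8%) of cells with *Lyve1* > 1 and 54.3% (48.8–59.7%) of the rest. Within *Cldn11* > 1 the shares were 39.6% of 53 cells and 37.8% of 98 cells, with overlapping intervals, and the ratio of the means had the other sign, at 1.42 against 0.94 (log2 ratio 0.55). Whether the ratios differ was not tested, and this subdivision was chosen after the values had been seen. Along *Stab2* and *Fndc1*, which the study uses for capillary LECs, *Bmp4* had log2 ratios of opposite sign (0.55 and −0.79). The ratio along *Stab2* was not past 1.5-fold and was 0.17 in thinned cells.

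*Bmp4* was higher in the 149 cells with *Foxp2* > 1, a transcription factor gene, with a mean of 1.88 against 1.05 reads per 10000 (log2 ratio 0.78). It was found in 50.3% against 41.1% of cells, with overlapping intervals, and in 41.6% against 29.5% after thinning, where they did not overlap. Of all genes 1.74% were higher and 2.83% lower past 1.5-fold along *Foxp2*. Cells with *Foxp2* > 1 also had more reads, with a median of 460549 against 322571 in the rest, and its part in these shares before thinning was not tested. *Acvrl1* was higher in the 240 cells with *Gja4* > 1, found in 78.8% (interval 73.0–83.7%) against 68.1% (64.2–71.8%), with a mean of 2.46 against 1.55 (log2 ratio 0.63), where 1.32% of all genes were higher and 1.67% lower. That ratio was close to the limit of 0.58 and lay between 0.44 and 0.68 over the 10 alternatives run. Those that change only the share of cells required or the fold limit leave it as it was.

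**Figure D3:**
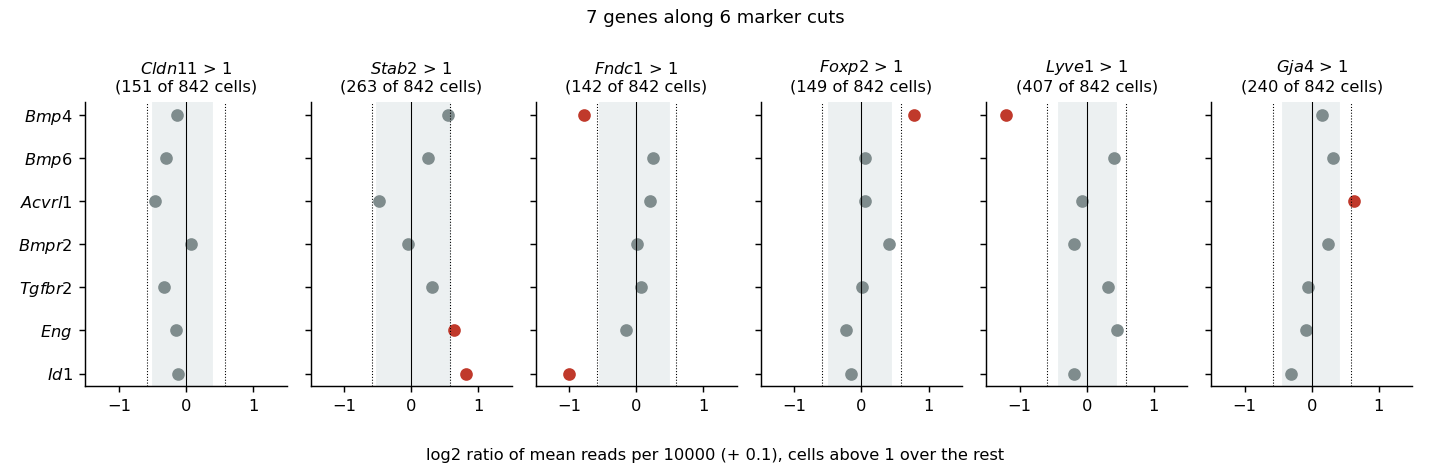
The log2 ratio of mean reads per 10000 (0.1 added), cells above 1 over the rest, for 7 genes along 6 markers. Dotted lines mark 1.5-fold, the shaded band holds the middle 90% of all genes tested, and red points are past 1.5-fold. No point is red along *Cldn11*, and *Bmp4* is red along *Fndc1*, *Foxp2* and *Lyve1*.

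*Id1* is also an early responding gene, so the immediate early genes that tissue dissociation induces were set beside it. The sum of the 16 genes was used to order the cells into 4 groups of 210 or 211 cells. In the lowest group *Id1* was found in 39.8% of cells (interval 33.2–46.8%) with a mean of 0.78 reads per 10000, and in the following groups in 60.0%, 65.7% and 64.5%, with means of 2.05, 3.42 and 3.58. *Smad7* was found in 1.42% of cells of the lowest group and in 11.9%, 13.3% and 11.4% of the others. The mean of *Tgfbr2* was highest in the lowest group, at 9.29 reads per 10000 against 6.66, 6.15 and 6.78. Spearman's rho with the sum over 842 cells was 0.24 for *Id1*, also in thinned cells, and under 0.2 in size for the other 9 genes. Median depth was 316970 reads in the lowest group and 295059, 258864 and 522805 in the following groups. The part of depth in these shares was not tested.

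The immediate early sum had a median of 180 reads per 10000 in cells with *Stab2* > 1 and 231 in the rest. Its part in the *Id1* ratios along *Stab2* and the other markers was not tested. *Id1* was at a higher mean in cells with *Stab2* > 1 within each of the 4 groups, at 1.14 against 0.59, 2.52 against 1.80, 6.32 against 2.44 and 5.11 against 2.91. The share of cells with *Id1* was nearly equal in the lowest group, at 40.3% against 39.6%, and in the other groups it was 64.9% against 57.4%, 79.2% against 61.1% and 89.1% against 53.7%. With *Fndc1* > 1, where *Id1* was lower, the sum had a median of 181 against 224. It was 231 with *Cldn11* > 1 and 219 in the rest.

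**Figure D4:**
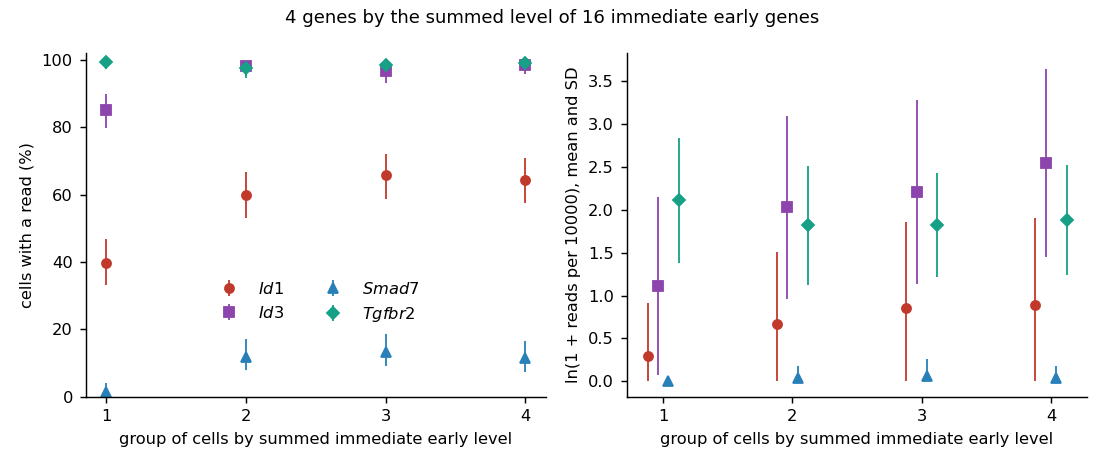
Cells in 4 groups of like size by the summed level of 16 immediate early genes (horizontal axis, lowest group at 1), with the share of cells that had a read of *Id1*, *Id3*, *Smad7* or *Tgfbr2* and its exact 95% interval on the left, and the mean natural log value with 1 SD over cells, drawn down to no less than 0, on the right. *Id1* is found in 39.8% of cells in the lowest group and in 60.0% to 65.7% in the others.

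A cell had reads of 5 of the 10 genes at the median (range 0 to 8). *Acvrl1*, *Bmpr2* and *Eng* were found together in 455 cells (54.0%, interval 50.6–57.4%), and in 27.2% of thinned cells (24.1–30.4%), so this share follows depth. A read of *Bmp4* or *Bmp6* was found in 501 cells (59.5%), and with all 3 receptor genes in 294 cells (34.9%). *Bmp6* was found in 46.1% (interval 40.9–51.4%) of the 360 cells with *Bmp4* and 29.3% (25.2–33.5%) of the 482 cells without, and thinned cells gave 35.6% against 21.1%. *Id1* was found in 60.0% of cells with all 3 receptor genes (interval 55.3–64.5%) and 54.5% of the others (49.4–59.6%). After thinning these shares were 40.9% and 44.8%, so the order of the shares turned with depth, and the intervals overlapped at both depths.

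Rank correlations between the genes across cells were low, which does not show that the genes varied independently. Of the 21 pairs among the 7 genes, Spearman's rho was between −0.05 and 0.19 over 842 cells, with none at 0.2 or above in size, and *Bmp4* with *Bmp6* was the highest. The genes most like each member were sought among 9655 genes. *Eng* had the highest values, among them those with *Gm525* (rho 0.39) and *Angpt2*, which encodes angiopoietin 2 (0.36). *Tgfbr2* was most like *Mmrn1* (0.33), *Flt4*, the receptor of VEGF-C (0.27), and *Igfbp4* (0.27), and *Id1* most like *Id3* (0.31), *Socs3* (0.25) and *Hspa8* (0.24). For the ligands, *Bmp4* was most like *Bgn*, which encodes biglycan (0.29), *Gm15222* (0.25) and *Fblim1* (0.23), and the values of *Bmp6* with *Crim1* (0.25) and *Igfbp7* (0.22) were among its 3 highest. *Acvrl1* was most like *Sdc1* (0.23), *Crip1* (0.22) and *Aldh2* (0.22). The best values for *Bmpr2* (with *N4bp1* and *Nudt4* among them), *Smad7* (*Nr4a1* and *Hsp90aa1* among them), *Bmp2* (*Vldlr*, *Gm4258* and *Napepld*) and *Smad6* (*Fastkd3*, *Mycn* and *Pigyl*) were under 0.2. The cells share a pool and differ in depth, and in thinned cells *Gm15222* with *Bmp4* fell to 0.12.

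The wider pathway was taken from 9 lists with 91 gene symbols, of which 74 were in the matrix. The other 17 were not analysed here, and they include second names of genes that were. A read in at least 10% of cells was found for 46 genes. Of these 46 genes, 3 were higher and 3 lower past 1.5-fold with *Cldn11* > 1, and their median log2 ratio was −0.12. That is 6.52% in each direction, beside 1.54% and 2.91% of all genes, from 3 genes each way. Of the higher genes *Tgif1* and *Twsg1* are described here, and the 3 lower ones were *Bmp7*, *Id2* and *Hey1*. Without the single cell of its highest level, each of *Tgif1*, *Twsg1*, *Bmp7* and *Id2* was no longer past 1.5-fold, while *Hey1* still was.

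Among the ligands, 0 of 7 were higher and 1 lower, with a median of −0.13. *Bmp7* was found in 9.93% of cells with *Cldn11* > 1 and 14.6% of the rest, with a mean of 0.15 against 0.29 reads per 10000 (log2 ratio −0.65). *Tgfb3* (66.7% of all cells), *Tgfb2* (48.7%) and *Tgfb1* (43.7%), the ligands of *Tgfbr2*, had ratios of −0.17, −0.13 and 0.01. *Gdf2*, the gene of BMP9, had no read in any cell.

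The receptors were uneven between kinds. Beside *Acvrl1*, the type I receptor *Acvr1* was found in 41.6% of cells, *Tgfbr1*, the usual partner of *Tgfbr2*, in 26.6% and *Bmpr1a*, a BMP type I receptor, in 1.66%. Of type I receptors 4 were in at least 10% of cells with a median ratio of −0.23, of type II receptors 3 with −0.12, and of co-receptors and decoys 4 with −0.06, and none was past 1.5-fold. Of the 5 receptor and common Smads none was past it either, with a median of 0.00, and *Smad1*, which carries BMP signals, was found in 94.1% of cells.

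Of 8 intracellular inhibitors in at least 10% of cells 1 was higher (median −0.06). This was *Tgif1*, a corepressor of Smad2 and Smad3, found in 68.9% of cells with *Cldn11* > 1 and 58.5% of the rest, with a mean of 1.73 against 1.08 (log2 ratio 0.63). Of 7 extracellular antagonists and binding proteins 1 was higher (median 0.16). *Twsg1*, which binds BMPs outside the cell, was found in 71.5% and 59.3% of cells, with a mean of 1.33 against 0.83 (log2 ratio 0.61). Without the single cell of highest level, *Tgif1* was at 0.56 and *Twsg1* at 0.55, below 1.5-fold.

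Of 6 BMP targets 2 were lower (median −0.12). *Id2*, of the same family as *Id1*, was found in 34.4% and 46.3% of cells (log2 ratio −0.59), and *Hey1*, also a Notch target, in 27.8% and 26.3% with a mean of 0.33 against 0.68 (−0.86). Without the highest cell *Id2* was at −0.52 and *Bmp7* at −0.58, neither past 1.5-fold though *Bmp7* was very close to it, and *Hey1* was at −0.75. *Id3* was found in 94.7% of all cells and was at −0.13. Of the 6 TGF-β targets in at least 10% of cells 1 was higher and 0 were lower past 1.5-fold (median −0.02).

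Fibroblast genes were higher with *Cldn11* > 1, for the larger part in 1 cell. The 5 fibroblast markers summed to a mean of 1.19 reads per 10000 in the set and 0.18 in the rest, with 3 of the 5 higher past 1.5-fold, *Dcn* (2.01), *Col1a1* (1.18) and *Col1a2* (0.60). A single cell with a sum of 133 made up most of this, and without it the mean of the set was 0.31 and the log2 ratios were 0.63 for *Dcn* and −0.06 for *Col1a1*. That cell also had the highest *Mgp*, at 70.6 reads per 10000. *Col1a1* and *Col1a2* were found in 2.14% and 1.54% of all cells, below the 10% required of genes counted as past 1.5-fold elsewhere. Any fibroblast marker was found in 19.2% of the set and 14.8% of the rest. With the 10 cells left out that had reads of at least 2 of the 5 markers, again none of the 7 genes was past 1.5-fold along *Cldn11*.

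**Figure D5:**
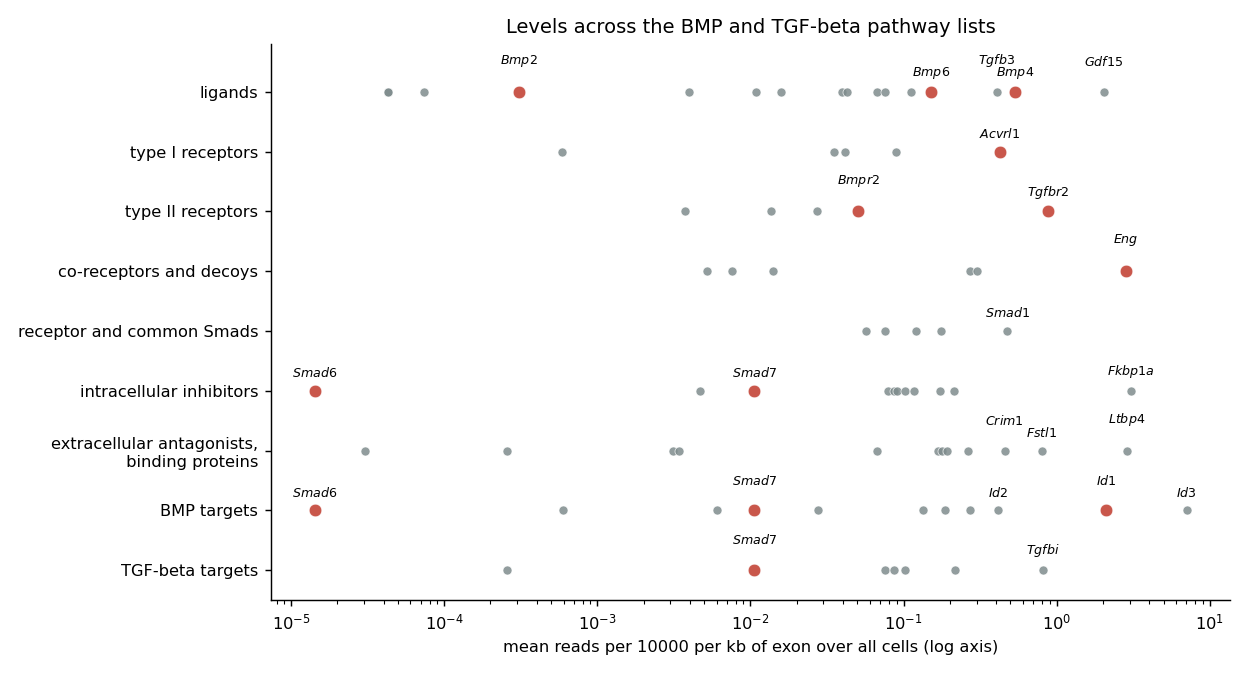
The mean level over all cells per kilobase of exon, in reads per 10000 on a log axis, for the genes of 9 pathway lists that had at least 1 read and a matched length. Red points are the 10 genes described, some of which stand in more than 1 list. *Eng*, *Id1* and *Tgfbr2* are at the upper end, at 2.82, 2.12 and 0.88, and *Smad6* and *Bmp2* at the lower end.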

How the data were processed

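Adult nasopharyngeal LECs were analysed as 1 pooled sample of 842 cells. Reads were mapped to mm10 by STAR and assigned to genes by featureCounts, and the authors used Seurat 4.1.0 to keep cells with at least 2000 genes and at most 10% mitochondrial reads. In the deposited matrix a value is a natural log, ln(1 + reads per 10000), because exponentials minus 1 summed to 10000 in each cell, although the methods name log2. Whole reads were recovered for 100% of values above 0 (within 0.01). They are reads and not molecular identifiers, so intervals (exact Clopper–Pearson, 95%) and the limit of 3 counts behind a share of 0 cover counting error only. Doublets were not called.

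Cells were divided at a value of 1 of a marker gene. Ratios are of mean reads per 10000 plus 0.1, and genes found in at least 10% of cells and past 1.5-fold were counted. Cells were also thinned to 20000 reads. The members, lists and divisions were chosen with earlier results of these data known. Genes named are the 10 members, list genes past 1.5-fold (at most 3 each way) and the 3 genes with the highest rho for each member. Some genes that this rule names are not reported here, and they are included in the counts and medians. Other genes were named after their values were seen. Of 23168 symbols 96.1% matched GENCODE M21. Analyses were run in Python 3.11.15 with NumPy 2.4.6, pandas 2.3.3, SciPy 1.17.1 and matplotlib 3.10.9, and were tested on simulated data.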

Additional observations from a re-analysis of the deposited data

How the results depend on the processing

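With cells as 1 sample, no paired analysis was possible because there is a single group, and no replicate could be left out. With a gene counted as found only above a value of 1, 2 of the 10 genes were in at least 50% of cells in place of 5. Thinning to 20000 reads lowered the share of cells with *Acvrl1*, *Bmpr2* and *Eng* from 54.0% to 27.2%. Along *Cldn11*, members past 1.5-fold (main count 0) numbered 2 with summed reads (*Bmp6* and *Id1*), 3 with *Cldn11* above 2 and 1 without the 249 cells that had 3 markers of another cell type (*Acvrl1*, −0.60). Of those cells 248 were left out for blood endothelial markers, which these LECs share. Over all genes, 149 were higher and 281 lower. These became 13 and 11 with a pseudocount of 1, 385 and 834 with 0.01, 307 and 499 with summed reads, 10 and 7 with natural log differences, 46 and 128 among genes in at least 30% of cells, 19 and 24 at 2-fold, 79 and 91 with any *Cldn11* read, and 792 and 1406 with *Cldn11* above 2. There were 258 higher with no low filter, 246 higher without cells with 3 other markers, and 159 lower with *Cldn11* above 0.5. Pathway genes past 1.5-fold, 6 at first, numbered 1 with a pseudocount of 1, at 2-fold or with any *Cldn11* read, 0 with log differences, 3 in genes of at least 30% of cells, and 2 and 16 with *Cldn11* above 0.5 and 2.

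The alternatives for the other markers were chosen after seeing the data. Within *Cldn11* > 1, 1 member passed in place of 0 with summed reads (*Bmp4*, −0.91), in cells with at least 3000 genes (*Bmp6*, −0.84) and without cells with 3 other markers (*Id1*, 1.41). The 52 cells with *Gja4* > 1 there include the cell of highest *Id1*, and no ratio was computed without it. With log differences 1 of 2 members passed along *Stab2*, and 0 along *Fndc1*, *Foxp2*, *Lyve1* and *Gja4*. At 2-fold 0 passed along *Stab2*, *Foxp2* and *Gja4* and 1 along *Fndc1*. With a pseudocount of 1, 1 passed along *Fndc1* and 0 along *Foxp2* and *Gja4*. Summed reads gave 2 along *Foxp2* (*Bmp4* and *Id1*) and 0 along *Gja4*, and cells with at least 3000 genes 0 along *Gja4*. Alternatives that change only the share of cells required or the fold limit leave every ratio as it was. Under the others, no member past 1.5-fold at the main setting changed sign, which covers no member along *Cldn11* or within *Cldn11* > 1. There *Id1* ran from −0.82 to 0.41 along *Cldn11* and from −0.49 to 1.41 along *Gja4* within *Cldn11* > 1. Of 56 pairs of gene and division (8 genes, without *Bmp2* and *Smad6*) 18 had ratios of both signs over the alternatives. Causes were not tested. Few cells, above all the 36 with *Cldn11* above 2 and the 52 with *Gja4* > 1 within *Cldn11* > 1, limit these values.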
